A study of Homo sapiens with 9 samples.

Results

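The 31 genes described here are the human S100 genes and annexin genes, 19 and 12 of them, out of 62666 genes in the deposited table. They were chosen by symbol alone: every row named S100 followed by a letter and a number or by a letter alone, or ANXA followed by a number. RNA was sequenced from 3 cell lines of the mammary gland, with 3 replicate libraries per line. MCF10A, a breast epithelial line that forms no tumours, stands at the start. MCF10AT1 carries activated HRAS on the MCF10A background and serves as the premalignant stage. MCF10Ca1a descends from the same lineage and serves as the malignant, tumour-forming stage. MCF10A and MCF10Ca1a were grown with 5% horse serum and MCF10AT1 with 2.5%, so serum and line cannot be told apart in either comparison that includes MCF10AT1. Otherwise all lines shared a medium of DMEM and F12 with bicarbonate, insulin, glutamine, epidermal growth factor, hydrocortisone and cholera toxin. Each condition is represented by 1 line, and the labels name neither separate cultures nor separate clones, so p-values measure the spread between these libraries, which may be technical.

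S100 proteins are small calcium-binding proteins with paired EF-hand motifs that mostly work as dimers, inside cells as regulators of target proteins and outside cells as ligands of receptors such as RAGE (AGER) and TLR4. Annexins bind acidic phospholipids of membranes in a calcium-dependent way and take part in membrane repair, vesicle traffic and the control of inflammation. The families meet physically: S100A10 binds ANXA2 and S100A11 binds ANXA1. Most S100 genes lie together at 1q21 within the epidermal differentiation complex, a gene cluster active in stratified epithelia, whereas annexin genes are spread over many chromosomes.

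Library totals ran from 32930503 to 69508842 estimated counts, with 32930503 to 35243012 in the 3 MCF10Ca1a libraries. All 9 epithelial markers examined, such as EPCAM and KRT5, were detected in each line, with a summed level of 2391 to 3265 TPM (an abundance per transcript length, scaled to a fixed total per library) in MCF10A, 3380 to 3822 in MCF10AT1 and 3996 to 4117 in MCF10Ca1a. Markers of other cell types were low but differed between lines. The 6 fibroblast markers summed to 6.43 to 7.21, 27.6 to 31.5 and 1.92 to 2.29 TPM in the 3 lines in that order, the 6 leukocyte markers to 16.2 to 22.7, 6.21 to 6.65 and 30.6 to 33.6, and the 4 endothelial markers to 0.674 to 0.901, 0.868 to 1.32 and 15.6 to 20.8. COL1A2 and COL3A1 of the fibroblast list, PTPRC, CD3E and LYZ of the leukocyte list and CDH5 and VWF of the endothelial list had at most 3 counts in every library. DCN reached 2072 counts in MCF10AT1, and CD68 and PECAM1 reached 1572 and 1751 counts in MCF10Ca1a. The part of these genes in the results was not tested.

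Of the 31 members, 25 passed the filter on low counts, 14 S100 genes and 11 annexin genes. S100G and S100Z had 0 counts in all 9 libraries, where a count of 0 allows up to 3 counts per library. S100B reached 1 count in 2 MCF10AT1 libraries. S100A1 had 0, 3 and 4 counts in the MCF10A libraries, 1, 2 and 0 in those of MCF10AT1 and 2, 4 and 8 in those of MCF10Ca1a. S100A12, the third calgranulin, had 8, 5 and 7 counts in the MCF10A libraries, 0, 0 and 1 in those of MCF10AT1 and 0, 0 and 0 in those of MCF10Ca1a, at least 1.17-fold lower in MCF10Ca1a than in MCF10A against a floor of 3 counts per library. ANXA13 had 5, 5 and 8 counts in MCF10Ca1a and 0 in the other 6 libraries, at least 3.78-fold higher than in MCF10A against the same floor. ANXA9 passed the filter through MCF10Ca1a alone, and S100A7 through MCF10A and MCF10Ca1a, so a difference of these genes from the low lines was part of their selection. Both stay in the counts of members called that follow.

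A change is called here where the quasi-likelihood test of edgeR gave an adjusted p below 0.05, adjusted over all 17910 genes tested. In MCF10AT1 against MCF10A, the premalignant step, 18 of the 25 members were called, 9 higher and 9 lower, where 61.6% of all genes tested were called (29.8% higher and 31.8% lower). By family, 5 S100 genes rose and 7 fell, and 4 annexin genes rose and 2 fell. In MCF10Ca1a against MCF10A, the whole progression, 22 were called, 8 higher and 14 lower, where 80.9% of all genes were called (39% higher and 41.9% lower). In MCF10Ca1a against MCF10AT1, the malignant step, 22 were called, 10 higher and 12 lower, where 78.4% of all genes were called (38% higher and 40.3% lower). The members called made up 72%, 88% and 88% of those tested. At least 2-fold changes in MCF10AT1 against MCF10A were called for 2 members upward, where 9.36% of all genes were, and for 5 downward, where 8.64% were. In MCF10Ca1a, 6 members rose and 6 fell at least 2-fold against MCF10A (21.2% and 21.7% of all genes), and 7 rose and 3 fell against MCF10AT1 (18.2% and 19.5%). The median log2 fold change of the S100 genes was -0.36, -0.71 and 0.06 in the 3 comparisons in this order, that of the annexin genes was 0.07, -0.19 and -0.57, and that of all genes tested was 0.00, -0.05 and -0.04. The 3 comparisons share libraries. S100A14 and S100P were the members called higher at both steps in this test. On log2(TPM + 1), ANXA1 was also called higher at both, at 0.87 (limma, adjusted p 1.76e-07) and 0.26 (limma, adjusted p 0.000621). That scale had no TMM scaling, and its median over all genes was -0.10 and 0.20 at these steps. S100A10 and ANXA4 were called lower at both steps on it. In the edgeR test, ANXA6, ANXA8, S100A11, S100A16 and S100A3 fell at both steps, S100A3 at the malignant step with a call that several settings lost.

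**Figure D1:**
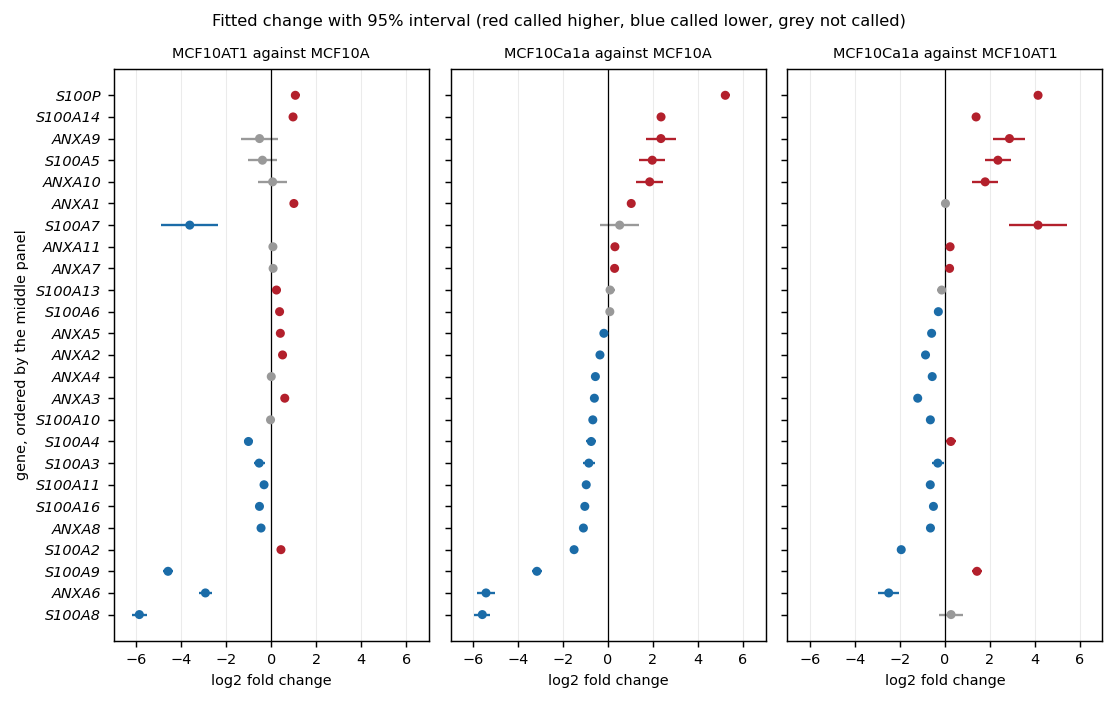
Fitted log2 fold change (horizontal axis) of the 25 tested members in the 3 comparisons, with 95% intervals, ordered by the change from MCF10A to MCF10Ca1a. S100P stands highest in the middle panel at 5.21, and S100A8, ANXA6 and S100A9 stand lowest at -5.59, -5.43 and -3.16.

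As a share of the RNA pool, the S100 family was larger than the annexin family in every library. The S100 genes summed to 24247, 24592 and 25592 TPM in MCF10A, 26319, 26747 and 26095 in MCF10AT1, with 20917, 20846 and 21458 in MCF10Ca1a, or 2.48% ± 0.0699, 2.64% ± 0.0331 and 2.11% ± 0.0335 of all TPM (SD, n = 3 per line). The annexin genes summed to 5614 ± 160 TPM in MCF10A, 7414 ± 465 in MCF10AT1 and 5717 ± 42.5 in MCF10Ca1a (SD, n = 3 per line). The S100 sum thus separated all 3 lines, with MCF10AT1 highest and MCF10Ca1a lowest, while the annexin sum was highest in MCF10AT1 and its ranges in the other lines overlapped. On length-scaled CPM the annexin sum did not overlap there: it was 5593 to 5691 in MCF10Ca1a and 6087 to 6445 in MCF10A. In cultured lines measured in bulk, fewer cells that express a gene and less RNA per cell cannot be told apart. S100A2 made up 42.2% of the S100 sum in MCF10A, 49.1% in MCF10AT1 and 19.7% in MCF10Ca1a, and S100A14 and S100P were among the 4 most abundant in MCF10Ca1a alone, with 18.9% and 9.87%.

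**Figure D2:**
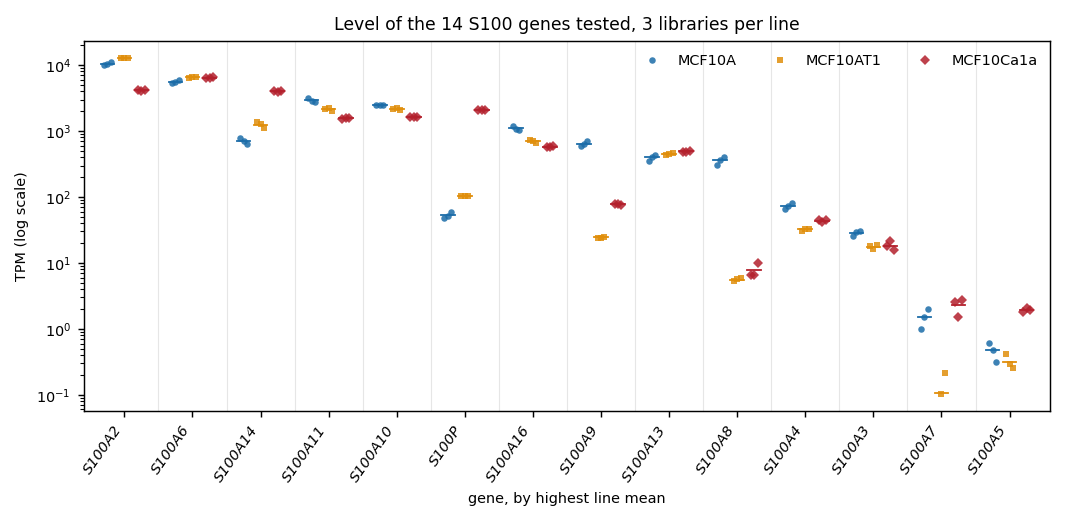
TPM on a log scale of each library (points) and the mean of each line (short lines) for the 14 S100 genes tested, ordered by their highest line mean; 1 MCF10AT1 library with 0 TPM of S100A7 is not drawn. S100P spans 53.2 ± 5.32 to 2079 ± 29.3 TPM (mean ± SD, n = 3) between MCF10A and MCF10Ca1a, and S100A8 and S100A9 are high in MCF10A alone.

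S100A8 and S100A9 encode the subunits of calprotectin, an antimicrobial and inflammatory heterodimer that keratinocytes make under stress and that signals through TLR4 and RAGE. Both fell in MCF10AT1 and were still far below MCF10A in MCF10Ca1a. They lie on opposite strands at 1q21 with S100A12 between them. Their start regions are shown because the pair had the deepest falls of all members in MCF10AT1. Each run covers the 250 bases before the RefSeq start (GRCh38.p14) and 50 from it on, and the start used is the one nearest to the first base of the member's most abundant matched transcript. Capitals mark every match on either strand to TATAAA (the TATA box), TGANTCA (an AP-1 site), GGGCGG (a GC box) and CACCTG (an E-box). Of 35116 RefSeq windows of this length, 11.5% held TATAAA, 7.71% TGANTCA, 45.0% GGGCGG and 20.6% CACCTG.
S100A8 (chr1:153391139-153391438, minus strand): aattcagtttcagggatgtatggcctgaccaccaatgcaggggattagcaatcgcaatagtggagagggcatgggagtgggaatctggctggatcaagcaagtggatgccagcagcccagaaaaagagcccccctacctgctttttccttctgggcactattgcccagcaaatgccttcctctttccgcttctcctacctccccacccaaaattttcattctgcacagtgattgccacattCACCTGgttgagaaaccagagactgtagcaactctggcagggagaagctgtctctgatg
S100A9 (chr1:153357604-153357903, plus strand): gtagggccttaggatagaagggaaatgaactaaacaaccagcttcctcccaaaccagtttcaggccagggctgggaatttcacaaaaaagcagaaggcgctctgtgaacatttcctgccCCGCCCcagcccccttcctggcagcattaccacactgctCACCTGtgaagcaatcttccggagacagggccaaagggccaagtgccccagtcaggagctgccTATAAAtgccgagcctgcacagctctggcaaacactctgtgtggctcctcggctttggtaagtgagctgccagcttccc
The S100A9 run holds TATAAA from 29 bases before the start, CACCTG from 92 bases before and the reverse complement of GGGCGG from 131 bases before it. The S100A8 run holds CACCTG from 9 bases before the start and no TATAAA. RefSeq lists 2 further S100A8 starts, and the windows of both hold TATAAA, that of chr1:153391024-153391323 from base -29 and that of chr1:153390927-153391226 from base -126, counted from each start. A match is a string of letters only.

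S100A8 (ENSG00000143546.10, chr1:153390032-153391188, minus strand) stood at 311, 364 and 399 TPM in MCF10A, at 5.26, 5.62 and 5.9 in MCF10AT1 and at 6.57, 6.67 and 10.0 in MCF10Ca1a. Every MCF10A library lay far above all 6 others, and MCF10AT1 lay below MCF10Ca1a in TPM but overlapped it in normalised counts. Its log2 fold change was -5.86 (adjusted p 1.54e-12, SE 0.155) in MCF10AT1 against MCF10A, a 58.2-fold fall. It was -5.59 (adjusted p 1.2e-12, SE 0.166) in MCF10Ca1a against MCF10A and 0.27 (adjusted p 0.344, SE 0.256) in MCF10Ca1a against MCF10AT1, which did not pass the test (95% interval -0.28 to 0.82). On log2(TPM + 1) that last difference was called at 0.39 (limma, adjusted p 0.0254), where the median of all genes was 0.20. It was also called with 0.1 added, but not on log2(TPM + 1) with no filter. S100A9 (ENSG00000163220.11, chr1:153357854-153361027, plus strand) stood at 591, 636 and 714 TPM in MCF10A, at 24.1, 24 and 24.9 in MCF10AT1 and at 77.7, 79 and 76.1 in MCF10Ca1a. Here all 3 lines separated, with MCF10AT1 lowest. The log2 fold change was -4.59 (adjusted p 2.76e-13, SE 0.102) for MCF10AT1 and -3.16 (adjusted p 1.38e-12, SE 0.0954) for MCF10Ca1a, each against MCF10A, falls of 24.1-fold and 8.96-fold. From MCF10AT1 to MCF10Ca1a S100A9 rose by 1.43 (adjusted p 8.78e-09, SE 0.0976). The TPM of S100A8 was 0.552 ± 0.0241 times that of S100A9 in MCF10A, 0.23 ± 0.00982 times in MCF10AT1 and 0.1 ± 0.0273 times in MCF10Ca1a (SD, n = 3 per line), and the ranges of the 3 lines did not overlap.

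S100A7, psoriasin, is a further inflammatory keratinocyte S100 protein that lies beside this pair, and it was scarce in all lines. It had 16, 26 and 39 counts in the MCF10A libraries, 0, 2 and 4 in those of MCF10AT1 and 23, 13 and 25 in those of MCF10Ca1a. MCF10AT1 lay below both other lines, which overlapped. In MCF10Ca1a against MCF10A the log2 fold change was 0.51 (adjusted p 0.243, SE 0.395), not called. It was -3.62 (SE 0.584) in MCF10AT1 against MCF10A and 4.14 (SE 0.589) in MCF10Ca1a against MCF10AT1. These changes from or to MCF10AT1 are given as a description, since S100A7 passed the filter through the other lines. With 0 to 4 counts in MCF10AT1 the size of these changes is poorly fixed: without MCF10AT1 replicate 3 the first was -4.55 and the second 5.06, and without MCF10AT1 replicate 1 they were -3.05 and 3.55. On log2(TPM + 1) they were -1.17 and 1.55.

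S100P (ENSG00000163993.7, chr4:6693069-6697170, plus strand), a secreted and intracellular S100 protein that binds ezrin and RAGE and is widely studied in carcinomas, showed the largest rise of any member. Its start region is shown as that of the most strongly rising member; its start lies 809 bases from the first base of the transcript as GENCODE 29 places it.
S100P (chr4:6693628-6693927, plus strand): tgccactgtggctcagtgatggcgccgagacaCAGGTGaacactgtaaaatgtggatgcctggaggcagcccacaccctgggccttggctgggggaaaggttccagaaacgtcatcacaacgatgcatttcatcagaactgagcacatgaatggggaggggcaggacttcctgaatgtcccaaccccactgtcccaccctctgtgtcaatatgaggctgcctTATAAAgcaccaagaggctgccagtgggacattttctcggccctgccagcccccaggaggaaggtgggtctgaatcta
The run holds TATAAA from 28 bases before the start and the reverse complement of CACCTG from 218 bases before it. S100P had 825, 959 and 1233 counts in the MCF10A libraries, 2110, 2078 and 2009 in those of MCF10AT1 and 19826, 18627 and 20310 in those of MCF10Ca1a, at 48.8, 51.6 and 59.1 TPM in MCF10A, at 103, 102 and 103 in MCF10AT1 and at 2052, 2076 and 2109.8 in MCF10Ca1a. Each line stood clear of the one before it, the MCF10Ca1a libraries by more than an order of magnitude in TPM. The log2 fold change was 1.07 (adjusted p 1.58e-07, SE 0.0877) in MCF10AT1 against MCF10A, 4.14 (adjusted p 1.74e-13, SE 0.0914) in MCF10Ca1a against MCF10AT1 and 5.21 (adjusted p 1.62e-14, SE 0.0971) in MCF10Ca1a against MCF10A, the last a 37-fold rise. S100P lies on chromosome 4, apart from the 1q21 cluster.

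S100A14 and S100A16 are adjacent at 1q21, 1109 bases apart on the same strand, and their RNAs moved in opposite directions at both steps. S100A14 is an epithelial S100 protein found at cell borders, and S100A16 is a broadly expressed member of the family. Their start regions are shown side by side because of this opposite movement.
S100A14 (chr1:153616276-153616575, minus strand): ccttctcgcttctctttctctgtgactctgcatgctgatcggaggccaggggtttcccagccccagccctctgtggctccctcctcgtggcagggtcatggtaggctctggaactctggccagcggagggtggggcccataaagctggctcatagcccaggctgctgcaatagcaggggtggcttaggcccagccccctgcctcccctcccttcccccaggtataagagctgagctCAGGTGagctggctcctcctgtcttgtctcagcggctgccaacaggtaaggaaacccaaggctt
S100A16 (chr1:153613088-153613387, minus strand): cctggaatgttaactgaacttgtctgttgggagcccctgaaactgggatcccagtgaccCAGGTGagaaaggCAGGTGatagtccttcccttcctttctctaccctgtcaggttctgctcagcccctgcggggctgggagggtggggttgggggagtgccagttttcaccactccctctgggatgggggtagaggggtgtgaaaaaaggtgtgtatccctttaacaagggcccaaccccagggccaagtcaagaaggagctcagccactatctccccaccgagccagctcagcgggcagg
Neither run holds a TATA box, an AP-1 site or a GC box in the letters given above. The S100A14 run holds the reverse complement of CACCTG from 14 bases before the start and has 5 CpG dinucleotides. The S100A16 run holds it from 191 and 178 bases before the start, and has 3 CpG dinucleotides, where the median over all RefSeq windows is 14. S100A14 (ENSG00000189334.9, chr1:153614255-153616986, minus strand) stood at 791, 709 and 634 TPM in MCF10A, at 1356, 1300.0 and 1109 in MCF10AT1 and at 4001, 3880.2 and 4090.2 in MCF10Ca1a. S100A16 (ENSG00000188643.11, chr1:153606886-153613145, minus strand) stood at 1179, 1074 and 1041 TPM in MCF10A, at 729, 717 and 655 in MCF10AT1 and at 575, 572 and 586 in MCF10Ca1a. In both genes the 3 lines separated without overlap, in opposite order. S100A14 rose by 0.97 (adjusted p 5.12e-08, SE 0.0712) in MCF10AT1 against MCF10A and by 1.38 (adjusted p 4.73e-10, SE 0.0718) in MCF10Ca1a against MCF10AT1, and stood 5.11-fold above MCF10A in MCF10Ca1a, a log2 fold change of 2.35 (adjusted p 2.05e-12, SE 0.0741). S100A16 changed by -0.52 (adjusted p 1.97e-06, SE 0.0551), by -0.51 (adjusted p 1.13e-06, SE 0.0553) and by -1.04 (adjusted p 5.32e-10, SE 0.0557) in the same comparisons.

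S100A2, an S100 protein of the nuclei of basal epithelial cells that binds p53, was the most abundant member in MCF10A and MCF10AT1 and not in MCF10Ca1a. S100A2 (ENSG00000196754.13, chr1:153561108-153567890, minus strand) stood at 9919, 10418 and 11106 TPM in MCF10A, at 12907, 13015 and 12977 in MCF10AT1 and at 4165, 4056 and 4260.1 in MCF10Ca1a. The lines did not overlap. S100A2 changed by 0.43 (adjusted p 0.000326, SE 0.0793) in MCF10AT1 against MCF10A, -1.51 (adjusted p 5.05e-10, SE 0.0809) in MCF10Ca1a against MCF10A and -1.94 (adjusted p 5.68e-11, SE 0.082) in MCF10Ca1a against MCF10AT1, the last a 3.85-fold fall. S100A6, calcyclin, took first place in MCF10Ca1a. S100A6 (ENSG00000197956.10, chr1:153534599-153536244, minus strand) stood at 5265, 5534 and 5886 TPM in MCF10A, at 6363, 6610.0 and 6575 in MCF10AT1 and at 6333, 6414 and 6506 in MCF10Ca1a. MCF10A lay lowest in every library in TPM and the other lines overlapped. In counts it rose by 0.37 (adjusted p 0.00114, SE 0.0797) in MCF10AT1 against MCF10A, differed by 0.08 (adjusted p 0.381, SE 0.0797) in MCF10Ca1a against MCF10A, which did not pass the test (95% interval -0.09 to 0.25), and changed by -0.29 (adjusted p 0.00409, SE 0.0797) in MCF10Ca1a against MCF10AT1. On log2(TPM + 1) the second difference was called at 0.21 (limma, adjusted p 0.00201) and the third was not, at -0.02 (limma, adjusted p 0.69). The medians of all genes on that scale were 0.09 and 0.20 in these comparisons. In counts without MCF10A replicate 1 the second difference turned to -0.03, and without MCF10A replicate 3 it was called at 0.16 (edgeR, adjusted p 0.0432).

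S100A4 is a regulator of non-muscle myosin that is known as a marker of motile and mesenchymal cells. It did not follow the order of the lines. S100A4 (ENSG00000196154.12, chr1:153543613-153550136, minus strand) stood at 65.9, 72.5 and 82.3 TPM in MCF10A, at 31, 32.7 and 33.3 in MCF10AT1 and at 44.1, 42.3 and 44.9 in MCF10Ca1a. MCF10A was highest in every library and MCF10AT1 lowest. It fell by 1.01 on the log2 scale in MCF10AT1 (SE 0.1, adjusted p 1.07e-06) and by 0.75 in MCF10Ca1a (SE 0.104, adjusted p 1.29e-05), each against MCF10A. The difference between MCF10Ca1a and MCF10AT1, 0.26 (adjusted p 0.0376, SE 0.107), lost its call when any 1 of 7 libraries was left out (all but MCF10A replicates 1 and 3), with adjusted p up to 0.135 in edgeR, and with no filter, length-scaled counts or scaled counts (up to 0.254). S100A3 overlaps S100A4 by 2044 bases on the same strand, so reads of the pair could be split between them. S100A3, a protein of hair cuticle cells, stood at 25.9, 29 and 30.4 TPM in MCF10A, at 18.3, 16 and 18.8 in MCF10AT1 and at 17.8, 21.8 and 15.5 in MCF10Ca1a. Its log2 fold change was -0.54 (adjusted p 0.00105, SE 0.114) in MCF10AT1 and -0.86 (adjusted p 1.87e-05, SE 0.123) in MCF10Ca1a against MCF10A. The change from MCF10AT1 to MCF10Ca1a, -0.32 (adjusted p 0.0321, SE 0.125), was lost without MCF10AT1 replicate 1 or 3 or MCF10Ca1a replicate 1 or 3, with adjusted p up to 0.147, with length-scaled or scaled counts, thinning or DESeq2 (up to 0.15), and was 0.04 on log2(TPM + 1).

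The remaining S100 members at 1q21 moved less or were scarce. S100A13, which takes part in the release of signal proteins that lack a leader sequence, stood at 356, 409 and 436 TPM in MCF10A, at 427, 449.8 and 466 in MCF10AT1 and at 489, 486 and 499 in MCF10Ca1a. Its ranges in MCF10A and MCF10AT1 overlapped, and MCF10Ca1a lay above both in TPM. In the main test only MCF10AT1 against MCF10A was called, at 0.23 (adjusted p 0.0418, SE 0.0918), a call lost without any 1 of 7 libraries (all but MCF10A replicate 3 and MCF10AT1 replicate 1) with adjusted p up to 0.142. That call was also lost with only the lines compared (adjusted p 0.0629) and on log2 TPM (0.16 with 1 added, limma adjusted p 0.0637, and 0.146 with no filter). Its difference was 0.09 (adjusted p 0.393) in MCF10Ca1a against MCF10A, called on log2(TPM + 1) at 0.30 (limma, adjusted p 0.00223), and -0.14 (adjusted p 0.168) against MCF10AT1, where the TPM scale gave 0.14. The medians of all genes on log2(TPM + 1) were 0.09 and 0.20 in these comparisons. The difference from MCF10AT1 was called lower in counts with no filter (-0.23, edgeR adjusted p 0.00109), with only the lines compared (-0.13, 0.0119) and without MCF10A replicate 1 (-0.16, 0.00995). S100A13 overlaps S100A1 on the opposite strand; the library kit keeps strand, and whether the counting used it is not given in the sources used here. S100A5 was scarce, with 21, 18 and 13 counts in the MCF10A libraries, 17, 12 and 10 in those of MCF10AT1 and 34, 37 and 37 in those of MCF10Ca1a. It was higher in MCF10Ca1a by 1.96 (adjusted p 9.92e-06, SE 0.264) against MCF10A and by 2.35 (adjusted p 2.55e-06, SE 0.275) against MCF10AT1, and -0.39 (adjusted p 0.28) between the other lines did not pass the test. On log2(TPM + 1), which understates changes of low genes, the S100A5 differences were 1.0 and 1.16.

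**Figure D3:**
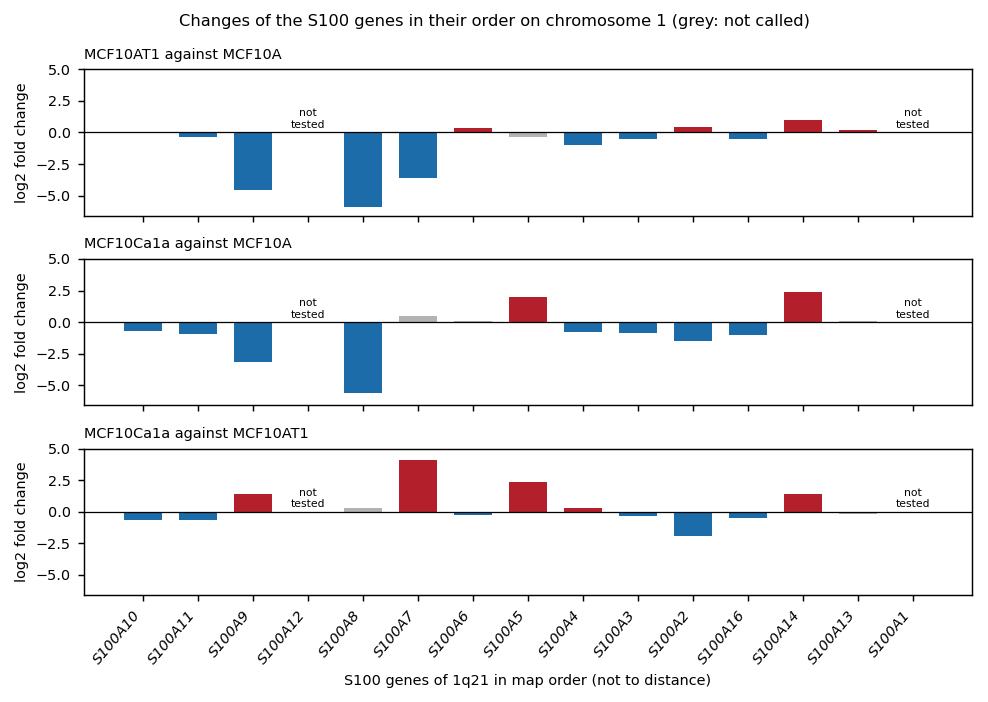
Log2 fold change (vertical axis) of the 15 S100 genes at 1q21 (S100A12 and S100A1 not tested) in their order on chromosome 1, in the 3 comparisons; bars are fitted values, red called higher, blue called lower and grey not called. Some neighbours differ in sign, as S100A16 at -1.04 and S100A14 at 2.35 do in MCF10Ca1a against MCF10A. The deepest falls in MCF10AT1 stand together at S100A9, S100A8 and S100A7, where that of S100A7 was part of its selection.

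S100A10 and S100A11 are the annexin partners among the S100 genes. S100A10 (p11), which has lost calcium binding and joins ANXA2 in a tetramer that binds plasminogen at the cell surface, stood at 2514, 2442 and 2468 TPM in MCF10A, at 2185, 2253 and 2112 in MCF10AT1 and at 1634, 1649 and 1659 in MCF10Ca1a (ENSG00000197747.9, chr1:151982915-151994390, minus strand). MCF10Ca1a lay below both other lines. S100A10 changed by -0.68 (adjusted p 6.16e-08, SE 0.0565) in MCF10Ca1a against MCF10A and -0.65 (adjusted p 1.17e-07, SE 0.0565) against MCF10AT1. Between MCF10AT1 and MCF10A it was -0.03 (adjusted p 0.644, SE 0.0562), not called (95% interval -0.15 to 0.09). On log2(TPM + 1) it was called at -0.18 (limma, adjusted p 0.00314), where the median of all genes was -0.10. ANXA2 (ENSG00000182718.18, chr15:60347134-60402883, minus strand), the most abundant annexin in every line, stood at 3709, 3601 and 3492 TPM in MCF10A, at 4839.5, 4876 and 4286 in MCF10AT1 and at 3035, 3064 and 3075 in MCF10Ca1a. The lines separated, with MCF10AT1 highest and MCF10Ca1a lowest. It rose by 0.50 (adjusted p 1.14e-05, SE 0.0632) in MCF10AT1 against MCF10A, and changed by -0.36 (adjusted p 0.000119, SE 0.0632) in MCF10Ca1a against MCF10A and by -0.86 (adjusted p 1.9e-08, SE 0.0635) against MCF10AT1. The TPM of S100A10 was 0.688 ± 0.0165 times that of ANXA2 in MCF10A, 0.469 ± 0.0214 times in MCF10AT1 and 0.539 ± 0.00082 times in MCF10Ca1a (SD, n = 3 per line). These ranges did not overlap, so the RNAs of the partners did not keep a fixed ratio across lines.

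ANXA1 is a glucocorticoid-regulated annexin whose N-terminal peptides act on formyl peptide receptors and dampen inflammation. ANXA1 (ENSG00000135046.14, chr9:73151757-73170393, plus strand) stood at 681, 698 and 709.7 TPM in MCF10A, at 1306, 1321 and 1197 in MCF10AT1 and at 1514, 1558 and 1488 in MCF10Ca1a. MCF10A lay below both other lines in every library. It rose by 1.01 (adjusted p 1.27e-08, SE 0.0647) in MCF10AT1 and by 1.03 (adjusted p 2.88e-09, SE 0.0648) in MCF10Ca1a, each against MCF10A. Between MCF10Ca1a and MCF10AT1 the difference was 0.02 (adjusted p 0.757, SE 0.0641) in counts, not called (95% interval -0.12 to 0.16). On log2(TPM + 1) the median of all genes was 0.20 in this comparison. On the TPM scales ANXA1 was called at 0.25 to 0.26 (limma, adjusted p 0.000621 on log2(TPM + 1)). Its partner S100A11 (calgizzarin), which acts in keratinocyte growth control, moved the other way. S100A11 (ENSG00000163191.6, chr1:152032506-152047907, minus strand) stood at 3178, 2851 and 2735 TPM in MCF10A, at 2170.4, 2221 and 2015 in MCF10AT1 and at 1519.8, 1559.8 and 1594 in MCF10Ca1a. The lines separated in falling order. S100A11 changed by -0.32 (adjusted p 0.000187, SE 0.055) in MCF10AT1 against MCF10A, -0.65 (adjusted p 8.84e-08, SE 0.0554) in MCF10Ca1a against MCF10AT1 and -0.97 (adjusted p 1.03e-09, SE 0.0556) in MCF10Ca1a against MCF10A. The TPM of S100A11 was 4.2 ± 0.42 times that of ANXA1 in MCF10A, 1.68 ± 0.0118 times in MCF10AT1 and 1.03 ± 0.0401 times in MCF10Ca1a (SD, n = 3 per line), with no overlap between lines.

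**Figure D4:**
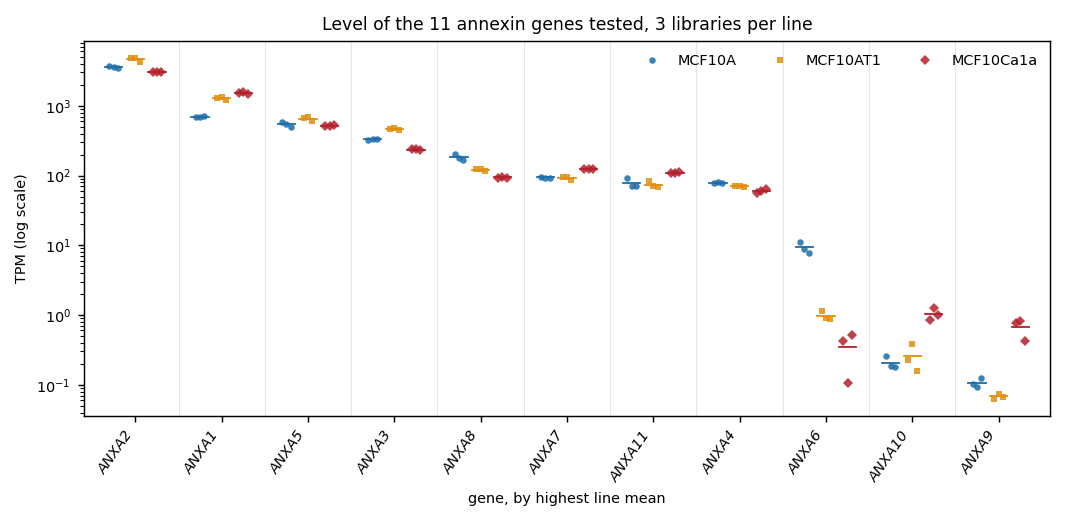
TPM on a log scale of each library (points) and the mean of each line (short lines) for the 11 annexin genes tested, ordered by their highest line mean. ANXA2 leads in every line, and ANXA6 drops from 9.31 ± 1.79 TPM in MCF10A to 0.349 ± 0.214 in MCF10Ca1a (mean ± SD, n = 3).

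ANXA6, an annexin with a doubled core that organises membrane and actin and acts in membrane repair and cholesterol traffic, showed the deepest fall of the annexins. It had 1455, 1318 and 1308 counts in the MCF10A libraries, 205, 166 and 157 in those of MCF10AT1 and 19, 8 and 23 in those of MCF10Ca1a (ENSG00000197043.15, chr5:151100712-151157882, minus strand). The lines were far apart. The log2 fold change was -2.93 (adjusted p 2.59e-10, SE 0.128) in MCF10AT1 against MCF10A, -2.50 (adjusted p 1.42e-07, SE 0.222) in MCF10Ca1a against MCF10AT1 and -5.43 (adjusted p 4.19e-12, SE 0.184) in MCF10Ca1a against MCF10A, the last a 43-fold fall. The sizes depend on the table: the change from MCF10AT1 to MCF10Ca1a was -1.75 with length-scaled counts, and that from MCF10A to MCF10Ca1a was -4.84 with scaled counts. On log2(TPM + 1), which understates changes of low genes, they were -0.56 and -2.93. ANXA6 stood at 11.3, 8.83 and 7.81 TPM in MCF10A, at 1.14, 0.915 and 0.881 in MCF10AT1 and at 0.425, 0.107 and 0.514 in MCF10Ca1a.

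ANXA3, ANXA5 and ANXA2 shared a pattern of calls with S100A2 in the edgeR test: each rose in MCF10AT1 and each was lower in MCF10Ca1a than in either other line. ANXA3 (ENSG00000138772.13, chr4:78551519-78610451, plus strand), an annexin of secretory and phagocytic cells, stood at 325, 334 and 336 TPM in MCF10A, at 461, 474 and 451 in MCF10AT1 and at 238, 238 and 231 in MCF10Ca1a. Its lines separated, and the log2 fold change was 0.60 (adjusted p 7.89e-07, SE 0.0577) in MCF10AT1 against MCF10A, -0.61 (adjusted p 2.73e-07, SE 0.0582) in MCF10Ca1a against MCF10A and -1.21 (adjusted p 2.35e-10, SE 0.0587) in MCF10Ca1a against MCF10AT1. ANXA5 (ENSG00000164111.15, chr4:121667955-121697113, minus strand), the phosphatidylserine-binding annexin used as a probe of dying cells, stood at 585, 539 and 503 TPM in MCF10A, at 673, 681 and 607 in MCF10AT1 and at 507, 513 and 525 in MCF10Ca1a. MCF10AT1 was highest in every library, and MCF10A and MCF10Ca1a overlapped in TPM. It rose by 0.40 (adjusted p 2.19e-05, SE 0.0547) in MCF10AT1 against MCF10A and changed by -0.59 (adjusted p 2.21e-07, SE 0.0549) in MCF10Ca1a against MCF10AT1. The change from MCF10A to MCF10Ca1a, -0.19 (adjusted p 0.00615, SE 0.0548), was not called on log2(TPM + 1), at -0.07 (limma, adjusted p 0.309).

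ANXA8, an anticoagulant annexin of basal epithelial cells, fell at each step, with a reservation about its copy. ANXA8 (ENSG00000265190.7, chr10:47460162-47484158, minus strand) stood at 200.4, 178 and 169 TPM in MCF10A, at 126, 123 and 114 in MCF10AT1 and at 93.6, 96.8 and 91 in MCF10Ca1a. ANXA8 changed by -0.45 (adjusted p 4.51e-06, SE 0.0519) in MCF10AT1 against MCF10A, -0.64 (adjusted p 5.74e-08, SE 0.0525) in MCF10Ca1a against MCF10AT1 and -1.10 (adjusted p 1.59e-10, SE 0.0528) in MCF10Ca1a against MCF10A. ANXA8L1 is nearly identical to it, and reads of the pair were shared out by estimation. ANXA8 received 59.8% to 60.7% of the pair's counts in MCF10A, 69.1% to 70.4% in MCF10AT1 and 64.4% to 64.9% in MCF10Ca1a. The pair together had 549 ± 11 CPM (counts scaled to library size) in MCF10A, 345 ± 15.2 in MCF10AT1 and 238 ± 4.15 in MCF10Ca1a (SD, n = 3 per line), the same order as ANXA8.

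ANXA7, ANXA11 and ANXA4 moved by less than 1 on the log2 scale in every comparison. ANXA7 (ENSG00000138279.16, chr10:73375101-73414076, minus strand), a synexin of vesicle fusion, stood at 96.3, 92.7 and 92 TPM in MCF10A, at 93.8, 94 and 86.8 in MCF10AT1 and at 125, 122 and 124 in MCF10Ca1a. MCF10Ca1a was higher by 0.29 (adjusted p 0.000115) than MCF10A and by 0.21 (adjusted p 0.00191) than MCF10AT1, and the latter call was lost with no filter on low counts (edgeR, adjusted p 0.125). The other 2 lines differed by 0.08 (adjusted p 0.17), not called. ANXA11 (ENSG00000122359.18, chr10:80150889-80205572, minus strand), an annexin that tethers RNA granules to lysosomes, stood at 90.6, 71.8 and 69.9 TPM in MCF10A, at 82.3, 70.0 and 67.7 in MCF10AT1 and at 108, 109 and 111 in MCF10Ca1a. MCF10Ca1a was higher by 0.30 (adjusted p 0.000538) than MCF10A and by 0.23 (adjusted p 0.00443) than MCF10AT1, a call lost with no filter (adjusted p 0.0572); the other 2 lines differed by 0.07 (adjusted p 0.327), called only without MCF10A replicate 1 (0.15, edgeR adjusted p 0.0114). ANXA4, an annexin of secretory epithelia, had line means between 59.8 and 78.7 TPM. MCF10Ca1a differed by -0.56 (adjusted p 3.27e-07) from MCF10A and by -0.57 (adjusted p 3.58e-07) from MCF10AT1. Between those lines 0.00 (adjusted p 0.996) was not called in counts. On log2(TPM + 1) ANXA4 was called lower in MCF10AT1 than in MCF10A, at -0.17 (limma, adjusted p 0.0196), where the median of all genes was -0.10.

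ANXA9 and ANXA10 were scarce and higher in MCF10Ca1a. ANXA9, an annexin of atypical calcium binding, had 8, 8 and 12 counts in the MCF10A libraries, 6, 7 and 6 in those of MCF10AT1 and 29, 29 and 18 in those of MCF10Ca1a. Its log2 fold change was 2.35 (SE 0.31) in MCF10Ca1a against MCF10A and 2.87 (SE 0.33) against MCF10AT1. These are given as a description, since ANXA9 passed the filter through MCF10Ca1a alone. ANXA10, a gastric annexin, had 14, 11 and 12 counts in the MCF10A libraries, 15, 13 and 10 in those of MCF10AT1 and 25, 25 and 21 in those of MCF10Ca1a and changes of 1.85 (adjusted p 2.35e-05, SE 0.272) and 1.79 (adjusted p 3.4e-05, SE 0.271) in the same comparisons. On log2(TPM + 1) the ANXA10 differences were 0.75 and 0.70, and with no filter those of ANXA9 were 0.58 and 0.63; in counts thinned to the smallest library, ANXA9 differed by 3.33 in MCF10Ca1a against MCF10A. Between MCF10AT1 and MCF10A neither was called, at -0.52 (adjusted p 0.271) and 0.06 (adjusted p 0.88).

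ANXA2 was also read at the level of transcripts. Of 46 ANXA2 transcripts listed, 45 had counts, 5 passed the minimum of 10 counts and 1% of the gene, and 2 held at least 5%. A change of share was tested with limma on the log2 ratio between each transcript and all others of the gene, over all 56823 transcripts tested. The leading transcript, ENST00000451270.7 (ANXA2-204 in GENCODE 29, chr15:60347327-60398043, 13 exons, 1435 bases), held 72.3%, 73.3% and 73.4% of ANXA2 counts in MCF10A, 75.4%, 75.9% and 76.1% in MCF10AT1, with 75.8%, 75.5% and 75.4% in MCF10Ca1a. The next, ENST00000421017.6 (ANXA2-203, chr15:60347342-60397986, 14 exons, 1444 bases), held 19.2%, 18.1% and 18% in MCF10A, 16.2%, 15.5% and 15.3% in MCF10AT1, with 15.8%, 15.1% and 15.6% in MCF10Ca1a. MCF10A stood apart from both other lines in each, by about the same few percentage points in opposite directions. Both carry the same coding sequence of 1017 bases in GENCODE 29. ANXA2-201, whose coding part is also complete from start codon to stop, begins 54 coding bases (18 codons) earlier; the first coding bases of both forms are shown for that reason, from GENCODE 29, with the added stretch of ANXA2-201 and the start codon of ANXA2-204 in capitals.
ANXA2-204, coding bases 1 to 60: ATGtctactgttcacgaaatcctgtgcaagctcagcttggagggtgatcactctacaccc
ANXA2-201, coding bases 1 to 114: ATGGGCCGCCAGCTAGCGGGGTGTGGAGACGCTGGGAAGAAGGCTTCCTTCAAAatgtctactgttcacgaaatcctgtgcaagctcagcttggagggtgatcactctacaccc

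In MCF10AT1 against MCF10A, 2 of the 5 ANXA2 transcripts were called, where 4.01% of all transcripts tested were called. These were the 2 that hold most ANXA2 counts, so their shares cannot move independently. Their calls may be 1 shift seen from both sides, and nothing is read from this count. The log2 ratio of ENST00000451270.7 to the rest rose by 0.21 (SE 0.041, adjusted p 0.0313) and that of ENST00000421017.6 changed by -0.28 (SE 0.0536, adjusted p 0.0292). Both calls were fragile: that of ENST00000451270.7 was lost without any 1 of the 9 libraries (limma, adjusted p up to 0.111), and that of ENST00000421017.6 without any 1 of 8 (all but MCF10Ca1a replicate 2, up to 0.102). Neither was called by diffSpliceDGE (adjusted p 1.0) or with the replicate number as a block (0.0949 and 0.0583). In MCF10Ca1a against MCF10A, 4 of 5 were called, where 25.4% of all transcripts were; 2 of the 4 had MCF10A under the minimum share of 1%. ENST00000558985.6 reached it through MCF10Ca1a alone and ENST00000332680.8 through MCF10AT1 and MCF10Ca1a, so their higher shares were part of their selection and nothing is read from this count. ENST00000451270.7 rose by 0.19 (SE 0.041, adjusted p 0.0117) and ENST00000421017.6 changed by -0.30 (SE 0.0536, adjusted p 0.0051). The first call was lost without MCF10Ca1a replicate 1 (adjusted p 0.0507), with only the lines compared (0.07) and with diffSpliceDGE (1.0). The second was lost with diffSpliceDGE (0.362). In MCF10Ca1a against MCF10AT1, ENST00000558985.6 was the call, 1 of 5, where 20% of all transcripts were called, so this count supports nothing further.

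The transcripts called besides these 2 were picked out after their values were seen. ENST00000558985.6 (ANXA2-214, chr15:60351724-60398033, 9 exons, 780 bases, with a coding part that ends without a stop codon in GENCODE 29) held 0.137%, 0.24% and 0.266% of ANXA2 counts in MCF10A, 0.277%, 0.435% and 0.361% in MCF10AT1, with 1.5%, 1.39% and 1.53% in MCF10Ca1a. MCF10Ca1a, through which it passed the filter, stood clear of the other lines. The log2 ratio differed by 2.86 (SE 0.265) from MCF10A and by 2.08 (SE 0.265) from MCF10AT1, given as a description since the filter required a difference. ENST00000332680.8 (ANXA2-201) held 0.995% ± 0.0616 in MCF10A and 1.36% ± 0.196 in MCF10Ca1a (SD, n = 3 per line), a log2 ratio difference of 0.45 (SE 0.116) given as a description for the same reason. ENST00000559647.2 (ANXA2-223, a transcript with a retained intron, chr15:60349075-60351553) was under the minimum share and not tested. It had 0 counts in all MCF10A libraries. MCF10AT1 had 1276, 912 and 1166 counts and MCF10Ca1a had 478, 319 and 317. ANXA2 transcripts share most of their sequence, and the uncertainty of assigning reads between them was not used.

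**Figure D5:**
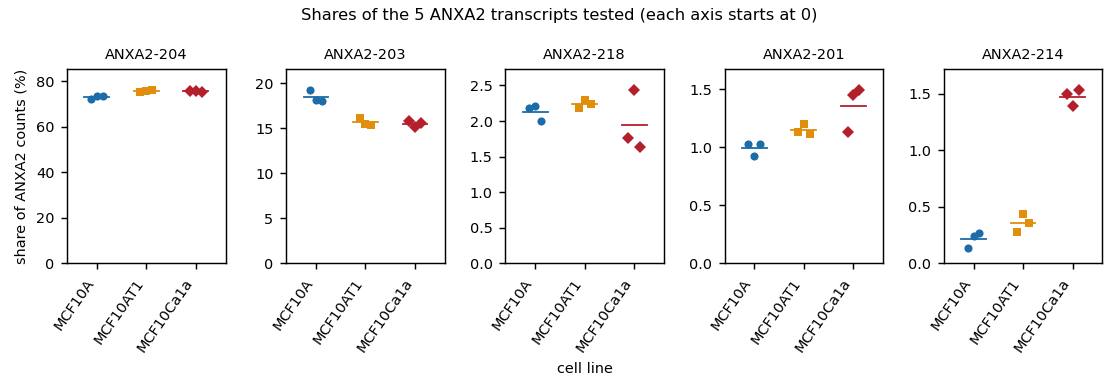
Share of ANXA2 counts in percent (vertical axes, each from 0) held by the 5 transcripts tested, by line, with libraries as points and line means as short lines. ANXA2-203 is lower in MCF10AT1 and MCF10Ca1a, at 15.7% ± 0.45 and 15.5% ± 0.352, than in MCF10A at 18.4% ± 0.675 (SD, n = 3 per line), and ANXA2-214 is highest in MCF10Ca1a.

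Receptors of extracellular S100 proteins and annexin peptides were read as a list. This list and those below were chosen with earlier results of these data known, so their counts are a description. Of 6 receptor genes listed, 4 were tested, and all 4 were called in each comparison: 3 higher and 1 lower in MCF10AT1 against MCF10A, 2 and 2 in MCF10Ca1a against MCF10A, and 1 and 3 in MCF10Ca1a against MCF10AT1. Of all genes tested, 61.6%, 80.9% and 78.4% were called. TLR4, a receptor of S100A8 and S100A9, had 19, 21 and 27 counts in the MCF10A libraries, 2743, 2865 and 2399 in those of MCF10AT1 and 586, 568 and 632 in those of MCF10Ca1a, a change of 6.92 (adjusted p 5.48e-15, SE 0.0978) in MCF10AT1 and 5.65 (adjusted p 1.68e-14, SE 0.106) in MCF10Ca1a against MCF10A. FPR1, a receptor of ANXA1 peptides, had 22, 34 and 44 counts in the MCF10A libraries, 305, 318 and 278 in those of MCF10AT1 and 0, 0 and 0 in those of MCF10Ca1a. It was higher in MCF10AT1 than in MCF10A by 3.20 (adjusted p 3.16e-08, SE 0.186), and at least 5.82-fold lower in MCF10Ca1a than in MCF10A and 53.8-fold lower than in MCF10AT1, against a floor of 3 counts per library. BSG, basigin, a receptor of S100A9, changed by -0.25 (adjusted p 0.0163) at the premalignant step and by 0.57 (adjusted p 1.74e-05) at the malignant step. AGER, which encodes RAGE, was low, at 1.86, 1.44 and 2.27 TPM in MCF10A, at 2.41, 2.25 and 2.55 in MCF10AT1 and at 1.02, 0.883 and 0.723 in MCF10Ca1a. It rose by 0.36 (adjusted p 0.0325, SE 0.135) in MCF10AT1 against MCF10A, and changed by -1.33 (adjusted p 4.57e-06, SE 0.165) in MCF10Ca1a against MCF10A and by -1.69 (adjusted p 3.43e-07, SE 0.163) against MCF10AT1.

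Of 17 genes whose proteins are known to bind S100 proteins or annexins, 14 were tested. In MCF10AT1 against MCF10A 7 were higher and 3 lower, in MCF10Ca1a against MCF10A 6 and 7, and in MCF10Ca1a against MCF10AT1 5 and 8. The shares of all genes called higher and lower were 29.8% and 31.8%, 39% and 41.9%, and 38% and 40.3% in this order. The median log2 fold change of the list was 0.13, -0.03 and -0.32, beside 0.00, -0.05 and -0.04 for all genes tested. AHNAK2, a giant scaffold protein, rose most in MCF10AT1, by 1.47 (adjusted p 7.82e-09, SE 0.0902). PLAT, tissue plasminogen activator, a ligand of the ANXA2 and S100A10 tetramer, stood at 43.3, 34.7 and 29 TPM in MCF10A, at 25.5, 24.6 and 21.5 in MCF10AT1 and at 230.2, 229.6 and 231 in MCF10Ca1a and rose most in MCF10Ca1a, by 2.66 (adjusted p 3.08e-12, SE 0.0872) against MCF10A and 3.03 (adjusted p 1.78e-12, SE 0.0887) against MCF10AT1. CACYBP, the calcyclin-binding protein named for its binding of S100A6, fell most in all 3 comparisons, with 439, 452 and 434 TPM in MCF10A and 150.1, 149.7 and 156 in MCF10Ca1a and a log2 fold change of -1.68 (adjusted p 4.77e-12, SE 0.0573) between them. PLG, plasminogen itself, had at most 1 count in any library.

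Membrane repair genes, a list of 20 that holds no member, had 19 tested. In MCF10AT1 against MCF10A 10 rose and 3 fell, in MCF10Ca1a against MCF10A 9 and 7, and in MCF10Ca1a against MCF10AT1 8 and 7. In the last 2 comparisons the list's shares, 47.4% and 36.8% and then 42.1% and 36.8%, lay near those of all genes (39% and 41.9%, then 38% and 40.3%); in the first they were 52.6% and 15.8%, beside 29.8% and 31.8%. The list's medians were 0.17, 0.01 and -0.06. SYT7, a calcium sensor of lysosome exocytosis, rose most in MCF10AT1, by 2.24 (adjusted p 3.57e-09, SE 0.127), and MCOLN1, a lysosomal calcium channel, fell most there, by 1.20 (adjusted p 1.35e-07, SE 0.0972). CHMP2A, an ESCRT-III subunit, rose most in MCF10Ca1a, by 1.52 (adjusted p 3.04e-12, SE 0.0496) against MCF10A and 1.19 (adjusted p 4.59e-11, SE 0.0491) against MCF10AT1. DYSF, dysferlin, the repair protein that recruits annexins to wounds in muscle, had 185, 176 and 169 counts in the MCF10A libraries, 112, 119 and 110 in those of MCF10AT1 and 1, 1 and 2 in those of MCF10Ca1a.

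Other genes of the epidermal differentiation complex, which surrounds the S100 cluster at 1q21, were mostly silent: of 43 listed, 29 had at most 3 counts in every library and 12 were tested. In MCF10AT1 against MCF10A 5 fell in edgeR's test, all of them at least 2-fold, and the other 7 were not called; of all genes, 31.8% were called lower and 8.64% at least 2-fold lower. In MCF10Ca1a against MCF10A 2 rose and 8 fell, beside 39% and 41.9% of all genes. In MCF10Ca1a against MCF10AT1 5 rose and 6 fell, beside 38% and 40.3%. Genes near 0 in a line passed the filter through the lines where they are higher. SPRR3, a precursor of the cornified envelope, fell most in MCF10AT1, from 20, 11 and 24 counts in MCF10A to 0, 1 and 1. LCE1E, a late cornified envelope gene, had 28, 32 and 28 counts in the MCF10A libraries, 36, 25 and 15 in those of MCF10AT1 and 0, 0 and 0 in those of MCF10Ca1a, at least 5.15-fold lower in MCF10Ca1a than in MCF10A and 4.5-fold lower than in MCF10AT1. SPRR2D rose in MCF10Ca1a against MCF10A by 2.63 (adjusted p 5.05e-12, SE 0.0905), and SPRR2E, with 10, 19 and 18 counts in the MCF10A libraries, 1, 1 and 0 in those of MCF10AT1 and 8, 5 and 8 in those of MCF10Ca1a, was the gene that rose most against MCF10AT1; SPRR2 genes are near-identical copies, so single members are uncertain.

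Near-identical copies and pseudogenes of members were checked because reads could be split with them. Of 13 listed, 10 were in the table and 3 were tested. ANXA2P2, a processed pseudogene of ANXA2, had 1622, 1652 and 1794 counts in the MCF10A libraries, 2460, 2614 and 2077 in those of MCF10AT1 and 856, 795 and 872 in those of MCF10Ca1a, against 105988 to 397036 for ANXA2 over the same libraries. It rose by 0.52 (adjusted p 3.7e-06, SE 0.0585) in MCF10AT1 and changed by -0.61 (adjusted p 5.2e-07, SE 0.0608) from MCF10AT1 to MCF10Ca1a, and ANXA8L1 fell most against MCF10A, with log2 fold changes of -1.07 (adjusted p 7.65e-10, SE 0.0523) and -1.38 (adjusted p 1.64e-11, SE 0.0533) in MCF10AT1 and MCF10Ca1a.

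Across the start regions of all members, 28 of the 31 had a RefSeq window; ANXA8, ANXA13 and S100B had none in the table used. TATAAA stood in 11 of 28 on either strand, and in 9 of 28 it stood on the gene's strand within 40 to 16 bases before the start, where 2.3% of all 35116 windows held it so. These 9 were S100A4, S100A7, S100A9, S100A13, S100G, S100P, ANXA1, ANXA2 and ANXA10. TGANTCA stood in 5 of 28, GGGCGG in 10 and CACCTG in 12. These counts describe the windows and were not tested, and the motifs were chosen after the windows had been read. For ANXA11 and S100Z the nearest RefSeq start lay 31620 and 24622 bases from the transcript's first base, so their windows may not be those in use.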

How the data were processed

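RNA of 9 libraries, 3 per line, was isolated on columns and made into stranded, poly-A-selected libraries, per the labels. Per the submitters' processing notes, Salmon was run and hg38 was the build; versions and annotation release are not given in the sources used here. The deposited gene and transcript tables hold estimated counts (expected counts; also as length-scaled and scaled tables) and TPM, as the authors computed them. Depth was 32930503 to 69508842 counts.

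Estimated counts were rounded. Genes were kept by filterByExpr of edgeR, grouped by line, at a count of 10 and a total of 15 (17910 of 62666). The main test was edgeR 4.0.16's quasi-likelihood test (R 4.3.3) with TMM, 9 libraries in 1 fit, Benjamini-Hochberg adjustment and a threshold of 0.05. Transcript shares were tested with limma 3.58.1 on log2 ratios with 0.5 counts added. The tests were also run on simulated data in which few genes or transcript shares changed, and in MCF10Ca1a alone. Far more were called here, so that run does not give the error rate in these data. Intervals cover 95%, and floors of 3 counts cover counting error only. Positions come from GENCODE 29 (GRCh38) through unversioned identifiers, since transcript versions differ in part.

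Alternatives were DESeq2 1.42.0 (its size factors, and its Wald test), no filter, the length-scaled and scaled counts, a replicate block, only the lines compared, limma on log2 TPM with 1 or 0.1 added, for genes with a mean TPM of at least 1 or with no filter, thinning, and each library left out; for shares also 5 counts added, TPM, a minimum of 1 count and diffSpliceDGE of edgeR, which sets each transcript against its gene as a whole (coefficients converted to log2); for sums, copies added and length-scaled counts. Members with at least 100 TPM in any line, the 4 largest called rises and falls per comparison, the partner pairs, S100A4, S100P and ANXA6, each list's largest called rise and fall, and ANXA2 transcripts of at least 5% were named. Members were taken by symbol alone, but the choice of them and of the lists was made with earlier results of these data known.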

Additional observations from a re-analysis of the deposited data

How the results depend on the processing

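The number of members called stayed within 1.5 times: 17 to 20 for MCF10AT1 against MCF10A, 22 to 26 for MCF10Ca1a against MCF10A and 20 to 23 for MCF10Ca1a against MCF10AT1. Of 1493 refitted member results, 1403 kept direction and side of the threshold, 38 lost the call, 20 gained it and 32 turned sign. Replicate numbers did not pair the libraries (same-number correlations of deviations from -0.0597 to 0.0451), and the replicate block left the members called at 18, 22 and 22 and the ANXA2 transcripts called in MCF10AT1 against MCF10A at 0. On log2(TPM + 1) the median of all genes moved to -0.10, 0.09 and 0.20 in the 3 comparisons.

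Besides S100A3 in MCF10Ca1a against MCF10AT1, the sign turned in differences that the main test did not call. In MCF10AT1 against MCF10A, ANXA4 was -0.00689 with DESeq2 size factors, -0.011 with the DESeq2 Wald test, -0.048 and -0.049 with length-scaled and scaled counts, -0.17 on log2 TPM, where it was called lower (limma, adjusted p 0.0193 to 0.0226), and -0.043 to 0.031 with 1 library left out. On log2 TPM, ANXA11 was -0.073 with 1 added and -0.074 with 0.1 added, and ANXA7 -0.034. Thinned, ANXA10 was -0.26 and ANXA9 0.79. With 1 library left out, ANXA10 ran from -0.055 to 0.18 and S100A10 from -0.063 to 0.00497, and in MCF10Ca1a against MCF10A S100A13 ran from -0.047 to 0.19 and S100A6 from -0.026 to 0.16. In MCF10Ca1a against MCF10AT1, ANXA1 was -0.066 with no filter, -0.038 with length-scaled and -0.028 with scaled counts, and ran from -0.026 to 0.036 with 1 library left out. S100A3 was 0.041 and 0.043 on log2 TPM with 1 and 0.1 added, and S100A13 was 0.14 with 1 added. The share of ENST00000421017.6 ran from -0.039 to 0.00767 with 1 library left out. No cause was tested.

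The log2 ratios of summed S100 levels, 0.09, -0.24 and -0.32 in TPM, were 0.19, -0.18 and -0.37 with length-scaled CPM; those of the annexins were -0.15 and -0.62 in place of 0.03 and -0.37 for MCF10Ca1a against MCF10A, where the direction turned, and against MCF10AT1. ANXA2 transcripts with a called share numbered 2 in MCF10AT1 against MCF10A, 1 with TPM, 4 with a filter at 1 count, 0 with only the lines compared or diffSpliceDGE, and 0 to 1 with 1 library left out. They numbered 4 in MCF10Ca1a against MCF10A, 15 with a filter at 1 count, 2 with only the lines compared, 1 with diffSpliceDGE and 3 to 4 with 1 library left out. The replicate block there lost the call of ENST00000332680.8 (limma, adjusted p 0.0541). In MCF10Ca1a against MCF10AT1 the transcripts called numbered 1, 8 with a filter at 1 count and 1 to 2 with 1 library left out. The filter admits more transcripts by construction; the other causes were not tested. The MCF10Ca1a libraries were the shallowest, which limits scarce members there.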
